A study of Mus musculus with 18 samples.

Results

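The 10 genes studied here mark the chambers and the conduction system of the mouse heart and were followed over 6 daily stages of ventricular development: Nppa, Nppb, Gja5, Gja1, Gjc1, Tbx3, Tbx2, Irx4, Hcn4 and Nr2f2. They were chosen by symbol, as every probe that the platform annotation assigns to these 10 genes. This gave 23 of the 45281 probes on the array. Of these, 15 probes of 9 genes were bright enough to be tested, which means a signal above the background limit on at least 3 of the 18 arrays, and the single Hcn4 probe was not.

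The samples were cells positive for green fluorescent protein, sorted by flow cytometry from enzymatically dissociated embryonic ventricles of Wt1GFPKI mice. The stages were E11.5, E12.5, E13.5, E14.5, E15.5 and E16.5 (embryonic day), with 3 arrays each, and each array measured the total RNA of 1 sample. Every group carried the same knock-in, and the labels set the groups apart by stage alone. No group without the reporter, or of cells without its signal, therefore enters any comparison. The series title calls the sorted cells cardiomyocytes, and the labels give neither the zygosity of the knock-in nor the number of embryos behind a sample.

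The ventricular wall forms a compact outer layer and an inner trabecular layer, and the trabeculae go on to supply the Purkinje network that carries the impulse quickly. Nppa and Nppb encode natriuretic peptides of the working chamber myocardium, Gja5, Gja1 and Gjc1 encode gap junction proteins (connexins), and Hcn4 encodes the main pacemaker channel. The T-box repressors Tbx2 and Tbx3 hold chamber genes such as Nppa and Gja5 down in nodal and atrioventricular canal myocardium, Irx4 is a ventricular homeodomain factor, and Nr2f2 (COUP-TFII) is a nuclear receptor of atrial myocytes, veins and mesenchyme.

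The promoters of Nppa, Nppb and Gja5 are shown because Nppa and Gja5 are textbook targets of T-box and NK2 factors, and because Nppa and Nppb lie next to each other on chromosome 4 yet had different time courses. Each line holds the 250 bases before the annotated gene start on the plus strand, from RefSeq on GRCm38.p6: chr4:148000472-148000721 for Nppa, chr4:147985650-147985899 for Nppb and chr3:97032152-97032401 for Gja5. Capitals mark the motif letters listed after them.
Nppa: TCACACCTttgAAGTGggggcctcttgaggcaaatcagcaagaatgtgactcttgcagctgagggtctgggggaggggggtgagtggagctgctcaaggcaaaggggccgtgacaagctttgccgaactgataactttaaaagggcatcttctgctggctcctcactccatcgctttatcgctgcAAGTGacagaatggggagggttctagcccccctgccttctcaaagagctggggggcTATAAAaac
Nppb: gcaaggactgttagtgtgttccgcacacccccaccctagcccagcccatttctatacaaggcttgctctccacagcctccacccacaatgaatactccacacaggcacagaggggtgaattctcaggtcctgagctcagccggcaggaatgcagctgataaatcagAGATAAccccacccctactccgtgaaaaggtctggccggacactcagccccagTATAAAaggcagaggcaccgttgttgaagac
Gja5: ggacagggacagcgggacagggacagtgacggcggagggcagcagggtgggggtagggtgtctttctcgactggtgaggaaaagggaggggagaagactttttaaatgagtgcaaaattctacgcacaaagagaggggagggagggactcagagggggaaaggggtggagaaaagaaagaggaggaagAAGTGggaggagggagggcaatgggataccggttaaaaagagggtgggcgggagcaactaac

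The Nppa window opened with the longer T-box motif AGGTGTGA, read on the opposite strand at positions -250 to -243 from the gene start. That motif occurred in 1.12% of the 32851 mouse promoter windows of the same length, searched on both strands. It overlaps the shorter T-box core TCACAC, which was present in 12.3% of windows. The NK2 core AAGTG, found in 40.7% of windows on either strand, stood at -239 to -235 and at -65 to -61 in Nppa and at -62 to -58 in Gja5. A GATA motif AGATAA, present in 9.99% of windows, stood at -84 to -79 in Nppb, and its reverse complement at -135 to -130 in Gja1. TATAAA, searched on the plus strand and present in 7.59% of windows, stood at -9 to -4 in Nppa and at -31 to -26 in Nppb. The strict CArG box, a serum response element of CC, 6 letters A or T and GG, was held by 1.47% of windows. It was found in none of the windows of the 7 members with a promoter entry, and boxes with a mismatch were not searched. The windows of Irx4, Hcn4 and Nr2f2 held none of the 6 motifs. Such letter matches describe the windows and were not tied to the expression values.

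All levels here are log2 of the deposited intensity after background correction, on which the probes spanned 4.02 to 14.08 and the background limit lay at 5.02. Levels of different probes are not comparable, since each probe has its own brightness, so comparisons run between stages of 1 probe. All 15 named cardiomyocyte markers were above the limit on all 18 arrays, and their summed intensity was 80255 to 84929 at E11.5 and 95433 to 100354 at E16.5. Signal of other cell types moved with stage as well. The 16 fibroblast and mesenchymal markers summed to 1382 to 1782 at E11.5 and 5976 to 8709 at E16.5, and the 18 endothelial markers to 1258 to 1592 and 2454 to 4399. The 7 erythroid markers went from 158 to 468 up to 7284 to 22260. Of these 7, 4 rose and 3 fell (Hba-x, Hbb-y and Hbb-bh1). Their mean log2 intensity was 5.71 at E11.5, 8.78 at E14.5 and 7.97 at E16.5. Epicardial markers summed to 583 to 703 at E11.5 and 505 to 690 at E16.5, and Sema3d among them was above the limit on no array. Of 11 tested epicardial markers, 6 fell, 2 rose and 3 did not pass between these stages, with a median change of -0.58. Tcf21, counted in this sum and in the fibroblast sum, went from a mean log2 intensity of 6.16 to 8.30. Of the 18 arrays, 7 correlated best with an array of a neighbouring stage. These were E12.5 replicate 1 (with E13.5 replicate 1), E13.5 replicate 1 (with E14.5 replicate 1), E15.5 replicates 1 and 2, and all 3 E16.5 arrays, the last 5 each with the array of the same number at the other of these 2 stages. The day-by-day calls of the members that use E12.5 replicate 1 or E13.5 replicate 1 are also given without them.

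**Figure D1:**
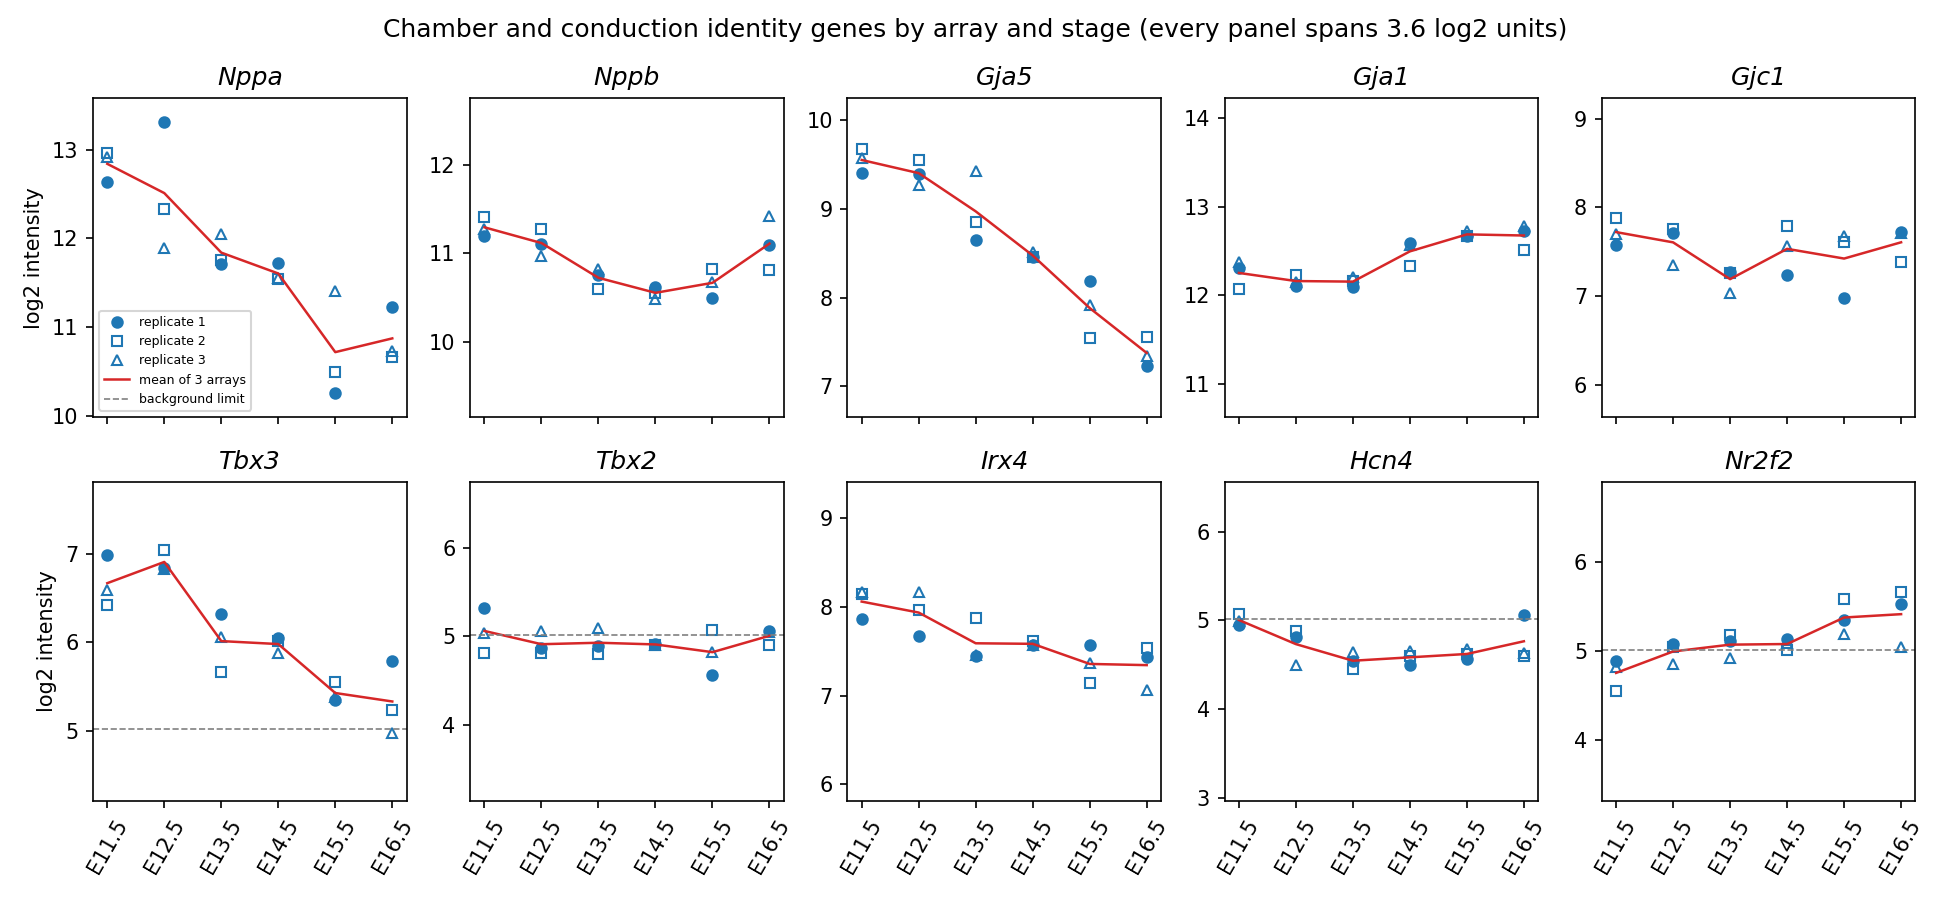
Log2 intensity (vertical axis) of the probe with the highest mean of each of the 10 genes on every array, by embryonic stage (horizontal axis). Symbols are the 3 arrays of a stage, red lines join stage means, dashed lines mark the background limit where it falls in the panel, and every panel spans the same range. Nppa, Gja5, Tbx3 and Irx4 descend, Gja1 and Nr2f2 climb, Nppb dips and returns, and Hcn4 and Tbx2 stay around the limit.

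Between E11.5 and E16.5, 6 of the 9 tested genes changed. Nppa, Gja5, Tbx3 and Irx4 fell, and Gja1 and Nr2f2 rose. Counted as probes, 9 of 15 passed limma's moderated test at an adjusted p under 0.05, where 19.4% of all 25342 tested probes passed. Of the 15, 7 passed as lower at E16.5, against 10.5% of all tested probes, and 2 passed as higher, against 8.95%. The 7 include 3 probes of Gja5, which correlated at 0.982 to 0.994 over the arrays, and 2 of Tbx3, which correlated at 0.909. Such probes are not independent, and the members were chosen with earlier results of these data known. The median change of the 15 probes was -0.39, and that of all tested probes was -0.02. Over the 6 stages together, 10 of the 15 probes of 7 genes passed limma's F test, where 23.3% of all probes did, and Nppb was the gene added. The linear trend per day also passed for 10 of 15 probes, against 25.1% of all, with 2 rising and 8 falling, where 11.5% and 13.6% of all did. The labels do not say that the 3 arrays of a stage came from separate litters, so these p-values measure the spread between these samples alone.

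**Figure D2:**
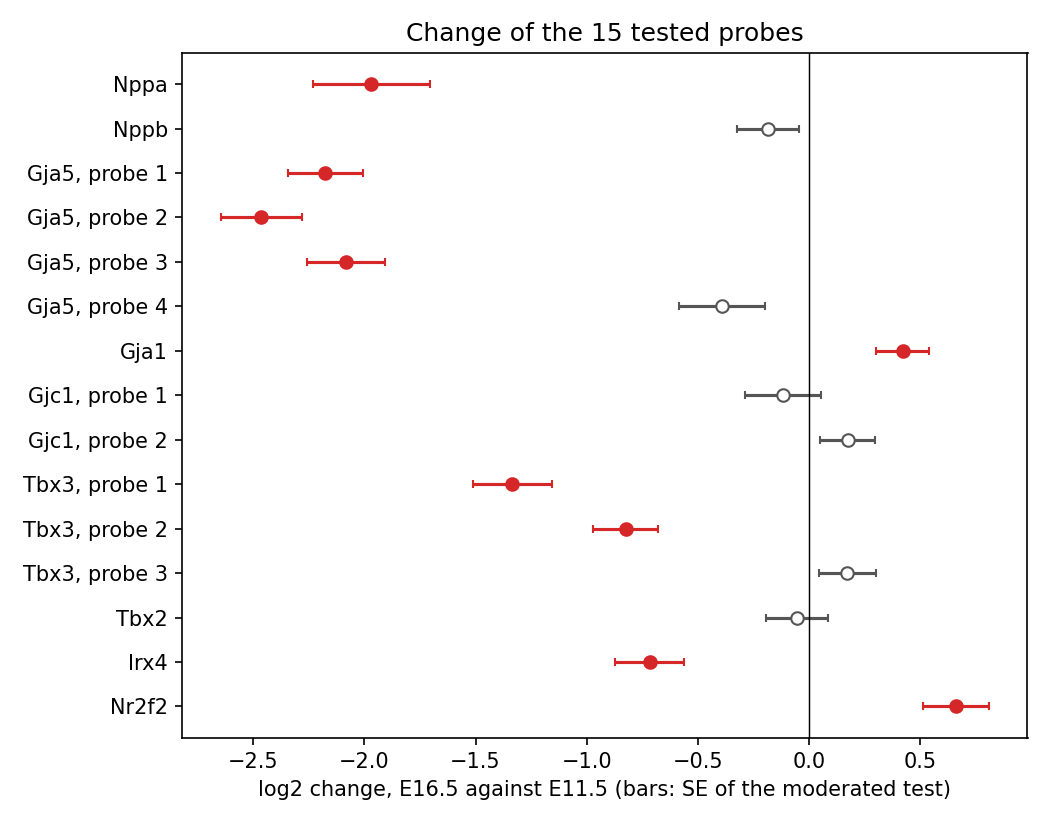
Change in log2 intensity from E11.5 to E16.5 (horizontal axis) for each of the 15 tested probes (vertical axis, grouped by gene); points are differences of stage means and bars are standard errors. The 3 bright Gja5 probes and Nppa lie near -2, while the Gja1 and Nr2f2 probes lie to the right of 0.

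Among the ligands, Nppa, which encodes atrial natriuretic peptide, was high at first and fell. Its log2 intensity was 12.63, 12.97 and 12.92 at E11.5 and 13.31, 12.33 and 11.89 at E12.5. It was 11.71, 11.75 and 12.05 at E13.5 and 11.72, 11.54 and 11.56 at E14.5. It was then 10.25, 10.49 and 11.41 at E15.5 and 11.23, 10.66 and 10.73 at E16.5. The E11.5 arrays lay above every array from E13.5 on, the E12.5 arrays spread across both, and all arrays of the last 2 stages lay below those of E14.5. Nppa was 3.91-fold lower at E16.5 than at E11.5 (log2 change -1.97, SE 0.26, n = 3 arrays a stage, limma adjusted p = 4.24e-06), and the slope over the series was -0.44 per day (limma adjusted p = 3.14e-08). In such sorted bulk samples, fewer cells that make a transcript and less transcript per cell cannot be told apart.

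The steepest day for Nppa was E14.5 to E15.5, with a difference of -0.89 (SE 0.26) and no overlap between the arrays, which missed the threshold (limma adjusted p = 0.0681). The call depended on the setting. The step passed with array weights (adjusted p = 0.0194) and in a fit on these 2 stages alone (adjusted p = 0.0433). Without E15.5 replicate 3 the difference was -1.23 with adjusted p = 0.0079, and without E12.5 replicate 1 or E12.5 replicate 3, arrays that enter this step through the shared spread only, the adjusted p was 0.0147 or 0.0397. From E15.5 to E16.5 the Nppa arrays overlapped, with a difference of 0.16 (SE 0.26, limma adjusted p = 0.999).

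Nppb, the B-type natriuretic peptide, took a different course, dipping in mid-series and ending near its start. It was 11.19, 11.41 and 11.27 at E11.5 and 11.10, 11.27 and 10.97 at E12.5. It was 10.75, 10.60 and 10.82 at E13.5 and 10.62, 10.56 and 10.48 at E14.5. It was 10.50, 10.82 and 10.68 at E15.5 and 11.09, 10.82 and 11.42 at E16.5. All E13.5 and E14.5 arrays lay below all E11.5 and E12.5 arrays, and 2 of the 3 E16.5 arrays lay above all of these lower arrays and those of E15.5. The quadratic trend, positive where the ends lie above the middle, was 0.56 (SE 0.10, limma adjusted p = 0.000921), and Nppb was the 1 probe of 15 to pass it, where 4.06% of all probes did. It stayed between 0.47 and 0.64 with any single array left out. The first and last stage differed by -0.18 (SE 0.14, limma adjusted p = 0.435). The linear trend of Nppb, -0.07 per day (limma adjusted p = 0.0315), missed the threshold when any of 6 single arrays was left out, with an adjusted p of up to 0.157.

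Within arrays, Nppa and Nppb moved apart. The log2 difference Nppa minus Nppb had a mean of 1.55 ± 0.10 (SD, n = 3) at E11.5, 1.05 ± 0.06 at E14.5 and -0.24 ± 0.42 at E16.5. Its slope was -0.37 per day (SE 0.06, 18 arrays, two-sided permutation test, adjusted p = 1.25e-05 over 5 gene pairs). The raw p of 1e-05 is the smallest that 100000 permutations can give. The sign of a within-array difference has no meaning for 2 different probes, whereas its change over the stages does.

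The genes that process or receive these peptides were mixed. Of 11 tested genes of the natriuretic peptide system, 3 rose, 2 fell and 6 did not pass, with a median change of 0.07. Corin, the protease that activates the Nppa propeptide, was 2.57-fold higher at E16.5 (log2 change 1.36, SE 0.12, limma adjusted p = 9.30e-09), opposite in direction to Nppa. Ide, a peptide-degrading enzyme, was 1.42-fold higher. Mme (neprilysin) was 1.67-fold lower, and the clearance receptor Npr3, which also marks endocardium, was 1.42-fold lower (limma adjusted p = 0.00487).

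Among the connexins, Gja5 had the largest fitted fall of the tested genes. On the probe with the highest mean, ILMN_2691641, it was 9.41, 9.67 and 9.57 at E11.5 and 9.40, 9.55 and 9.27 at E12.5. It was 8.65, 8.85 and 9.43 at E13.5 and 8.46, 8.46 and 8.51 at E14.5. It was 8.18, 7.55 and 7.92 at E15.5 and 7.23, 7.56 and 7.34 at E16.5. Each E14.5 array lay below each earlier array, each E15.5 array below each E14.5 array, and only at E15.5 and E16.5 did neighbouring late stages touch. In the ventricle this connexin belongs to the trabeculae and the later Purkinje fibres.

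That probe was 4.52-fold lower at E16.5 than at E11.5 (log2 change -2.18, SE 0.17, limma adjusted p = 4.81e-10), with a slope of -0.46 per day. Another 2 Gja5 probes fell by the same pattern, ILMN_2908132 with a log2 change of -2.46 (SE 0.18) and ILMN_2908133 with -2.08 (SE 0.18), and the 3 correlated at 0.982 to 0.994 over the 18 arrays. The dim probe ILMN_2678477 was above background on 3 arrays only and changed by -0.39 (SE 0.19, limma adjusted p = 0.187), and the last, ILMN_2559898, was above it on none.

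The Gja5 stage mean was lower on every successive day. From E14.5 to E15.5, 1 member probe of 15 passed, Gja5 ILMN_2908132 (-0.70, SE 0.18, limma adjusted p = 0.0305), where 3.15% of all probes passed. The call was lost without any 1 of the E14.5 arrays, without E15.5 replicate 2 and without E15.5 replicate 3, with an adjusted p of up to 0.230, and without background correction (0.0792). The other bright probes had adjusted p = 0.0542 and 0.0571 for that step. Without E13.5 replicate 1, all 3 bright Gja5 probes passed at this step (adjusted p = 0.0348, 0.0144 and 0.0193), and all 3 passed from E13.5 to E14.5 as well, with differences of -0.66, -0.66 and -0.76. From E13.5 to E14.5, 2451 of all probes passed without that array and 799 with all arrays. With all arrays, none of the 15 member probes passed limma's test from E13.5 to E14.5, where 3.15% of all did, and 4 of the 15 had an unadjusted p under 0.05, where 17.8% of all did.

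Gja1, the main ventricular connexin, moved the other way and by less. It was 12.31, 12.07 and 12.38 at E11.5, 12.11, 12.23 and 12.15 at E12.5 and 12.09, 12.16 and 12.21 at E13.5. It was 12.59, 12.33 and 12.57 at E14.5, 12.67, 12.67 and 12.73 at E15.5 and 12.73, 12.52 and 12.78 at E16.5. The first 3 stages overlapped, and each array of the last 2 stages lay above each array of the first 3. Gja1 was 1.34-fold higher at E16.5 than at E11.5 (log2 change 0.42, SE 0.12, limma adjusted p = 0.0128), with adjusted p = 0.0953 without E11.5 replicate 2 and 0.0560 without E16.5 replicate 3. The trend over all stages passed with an adjusted p of 9.93e-05.

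Gjc1, the connexin of early and nodal myocardium, showed no change that passed. Its brightest probe was 7.58, 7.88 and 7.70 at E11.5, 7.71, 7.75 and 7.35 at E12.5 and 7.27, 7.26 and 7.04 at E13.5. It was 7.24, 7.79 and 7.56 at E14.5, 6.98, 7.61 and 7.67 at E15.5 and 7.73, 7.38 and 7.71 at E16.5. The arrays of the first and last stage overlapped, and the E13.5 arrays were the tightest low group. The first and last stage differed by -0.12 (SE 0.17, limma adjusted p = 0.732), and the F test over the stages had an adjusted p of 0.192. A second Gjc1 probe, above background on 5 arrays, differed by 0.18 (SE 0.12, limma adjusted p = 0.389), and the last was never above it.

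The 3 connexins therefore separated from each other within arrays. Gja5 minus Gja1 went from a mean of -2.70 ± 0.27 (SD, n = 3) at E11.5 to -5.30 ± 0.30 at E16.5, a slope of -0.57 per day (SE 0.04, permutation test over 18 arrays, adjusted p = 1.25e-05). Gja5 minus Gjc1 had a slope of -0.43 per day (SE 0.06), with the same adjusted p by the permutation test. Gjc1 minus Gja1 had the shallowest, -0.14 per day (SE 0.04, permutation test, adjusted p = 0.00181). Of 5 other connexin genes tested, 1 fell and none rose: Gjd4 was at least 1.05-fold lower (limma adjusted p = 0.0243), a bound because no E16.5 array was above background. Gjd4 was above background on 2 of 3 E11.5 arrays and did not pass limma's F test (adjusted p = 0.0798). Gja4, an arterial endothelial connexin, changed by 0.38 (SE 0.21, limma adjusted p = 0.259).

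**Figure D3:**
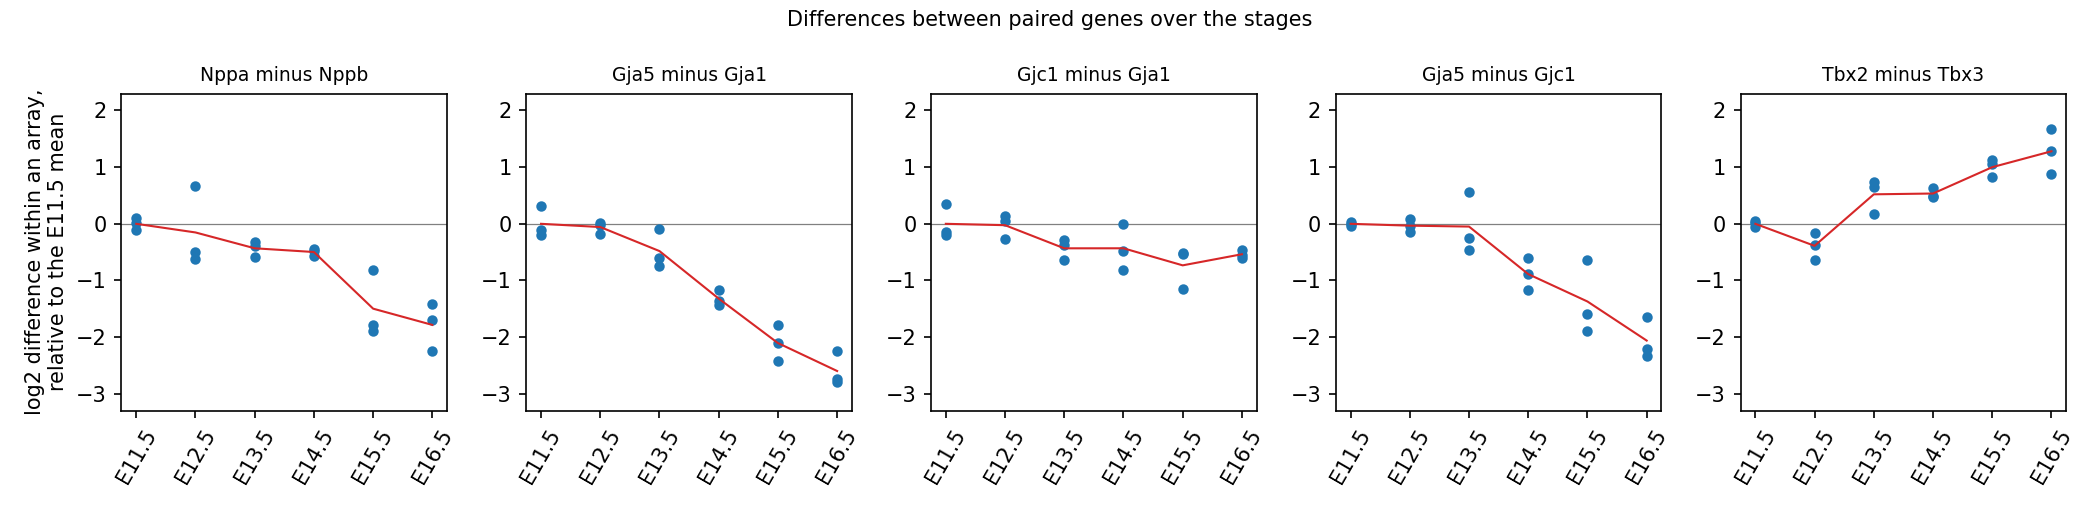
Within-array log2 difference between paired genes on the 18 arrays (vertical axis), set relative to its E11.5 mean, by embryonic stage (horizontal axis); points are arrays. All but 1 of the 5 panels descend, Gja5 minus Gja1 the furthest, and Tbx2 minus Tbx3 ascends, with Tbx2 near background.

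Of the T-box repressors, Tbx3, which keeps the conduction system from taking on a working chamber programme, fell. On probe ILMN_1247220 it was 6.99, 6.42 and 6.59 at E11.5 and 6.84, 7.04 and 6.83 at E12.5. It was 6.32, 5.66 and 6.06 at E13.5 and 6.05, 6.01 and 5.88 at E14.5. It was 5.35, 5.55 and 5.38 at E15.5 and 5.78, 5.23 and 4.98 at E16.5. The arrays of the first 2 stages all lay above those of every later stage, and the last array listed was below the background limit. Tbx3 was 2.52-fold lower at E16.5 (log2 change -1.33, SE 0.18, limma adjusted p = 4.21e-06), with a slope of -0.32 per day.

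On that probe the largest step was from E12.5 to E13.5, -0.89 (SE 0.18, limma adjusted p = 0.00969), the 1 member probe of 15 that passed there, where 2.09% of all probes did. It missed the threshold without E12.5 replicate 2 (-0.82, adjusted p = 0.0554) and without E13.5 replicate 2 (-0.72, adjusted p = 0.0900). It was -1.08 (adjusted p = 0.00355) without both E12.5 replicate 1 and E13.5 replicate 1. A second Tbx3 probe, ILMN_3139514, fell by 0.82 between E11.5 and E16.5 (SE 0.15, limma adjusted p = 0.000159) and correlated with the first at 0.909 over the arrays. Its own step from E12.5 to E13.5 was -0.37 (SE 0.15) and missed the threshold (limma adjusted p = 0.195). Probe ILMN_3061990, above background on 8 arrays, did not follow them (r = -0.132 and -0.31) and changed by 0.17 (SE 0.13, limma adjusted p = 0.418). The last Tbx3 probe was above background on 1 array and was not tested.

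Tbx2, the related repressor of the atrioventricular canal, was close to background throughout. Its tested probe ranged from 4.57 to 5.32, was above the limit on 7 arrays and differed by -0.05 between the first and last stage (SE 0.14, limma adjusted p = 0.861). The other Tbx2 probe was above the limit on 2 arrays. No E14.5 array of the tested probe was above the limit. The within-array slope of Tbx2 minus Tbx3, 0.30 per day (SE 0.04), therefore sets Tbx3 against a signal at the background and measures no change of Tbx2.

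Of 6 other T-box factors tested, 1 fell and none rose. Tbx18, an epicardial and sinus horn factor, changed by -0.58 (SE 0.15, limma adjusted p = 0.00669). The cardiac activators Tbx5 and Tbx20 changed by -0.14 (SE 0.12, limma adjusted p = 0.526) and 0.13 (SE 0.19, limma adjusted p = 0.719). The Tbx5 probe was near background, with stage means of 4.78 (E15.5, no array above the limit) to 5.24 (E11.5), which limits what it can show. Mga, a large T-box and bHLH factor, changed by -0.16 (SE 0.17, limma adjusted p = 0.607).

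Irx4, the Iroquois factor of ventricular identity, fell gradually. It was 7.87, 8.14 and 8.17 at E11.5, 7.67, 7.97 and 8.17 at E12.5 and 7.44, 7.87 and 7.46 at E13.5. It was 7.57, 7.61 and 7.57 at E14.5, 7.57, 7.14 and 7.37 at E15.5 and 7.43, 7.54 and 7.06 at E16.5. Neighbouring stages overlapped up to E14.5 and again at the end, while all E16.5 arrays lay below all E11.5 arrays. Irx4 was 1.64-fold lower at E16.5 (log2 change -0.72, SE 0.16, limma adjusted p = 0.00145), and no single day passed.

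Of the 5 other Iroquois genes, 4 fell with it, and Irx1 did not pass, with a list median of -1.41. Irx5 was 3.04-fold lower (log2 change -1.60, SE 0.15, limma adjusted p = 1.72e-08), and 2 of its 3 E16.5 arrays were above background. Irx3, a factor of the ventricular conduction system, was 2.74-fold lower and Irx2 was 2.66-fold lower. Irx6 was at least 1.01-fold lower (limma adjusted p = 0.0339), again a bound. It was above background on 1 of 3 E11.5 arrays and on no E16.5 array, and it did not pass limma's F test (adjusted p = 0.134).

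Hcn4 was hardly measurable. Its only probe read 4.95, 5.07 and 4.99 at E11.5 and between 4.46 and 4.88 from E12.5 to E15.5. At E16.5 it read 5.06, 4.60 and 4.63. Only E11.5 replicate 2 and E16.5 replicate 1 were above the limit of 5.02, so no stage was compared, and these values give no more than an upper bound on its signal.

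Among 20 tested pacemaker and conduction genes, 3 rose, 4 fell and 13 did not pass, with a median of -0.07. Id2, a transcriptional inhibitor needed in the ventricular conduction system, was 3.27-fold lower, and Cacna1h, a T-type calcium channel, 2.99-fold lower. Kcne1, a potassium channel subunit, was 2.06-fold higher. Irx3, already given, is a member of this list and of the trabecular list. The related channel genes Hcn2 and Hcn3 changed by -0.04 and 0.10, and the pacemaker factors Shox2 and Isl1 by 0.26 and -0.23, none of which passed limma's test.

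Nr2f2 rose from background. Its brightest probe was 4.89, 4.55 and 4.82 at E11.5, 5.08, 5.05 and 4.86 at E12.5 and 5.11, 5.18 and 4.92 at E13.5. It was 5.14, 5.01 and 5.09 at E14.5, 5.35, 5.59 and 5.19 at E15.5 and 5.54, 5.67 and 5.04 at E16.5. No E11.5 array was above background and all E16.5 arrays were, without overlap between these stages. At E16.5 Nr2f2 was higher by at least 1.32-fold (fitted log2 change 0.66, SE 0.15, limma adjusted p = 0.0019), where the bound sets the E16.5 mean against the lowest signal above background. Its other 3 probes were above background on no array.

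Nr2f2 is also made by fibroblasts and venous endothelium, whose markers were measured beside it. Of 15 tested fibroblast and mesenchymal markers, 13 rose, 1 fell and 1 did not pass, with Dcn 23.2-fold and Tcf21 4.42-fold higher at E16.5, while Postn was above background on no array. Of 17 tested endothelial markers, 11 rose and 2 fell, with Pecam1 2.15-fold higher (limma adjusted p = 0.000132), and of 12 arterial and venous markers 5 rose and 2 fell. At E11.5, E13.5, E14.5 and E16.5, the mean log2 intensity of the endothelial list was 6.23, 6.58, 6.11 and 6.99. That of the fibroblast list was 5.95, 6.92, 6.83 and 7.86, and Nr2f2 had 4.75, 5.07, 5.08 and 5.42. The part of these cell types in the Nr2f2 result was not tested. Nor was their part in the results of the connexins that vessels share (Gja5, Gja1 and Gjc1). The 12 arterial and venous markers summed to 2800 to 2904 at E11.5 and 2809 to 3506 at E16.5. Bright probes weigh most in such a sum, among them Nrp1 with means of 10.54 and 10.67. The mean log2 intensity of this list was 6.47 at E11.5 and 6.78 at E16.5.

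**Figure D4:**
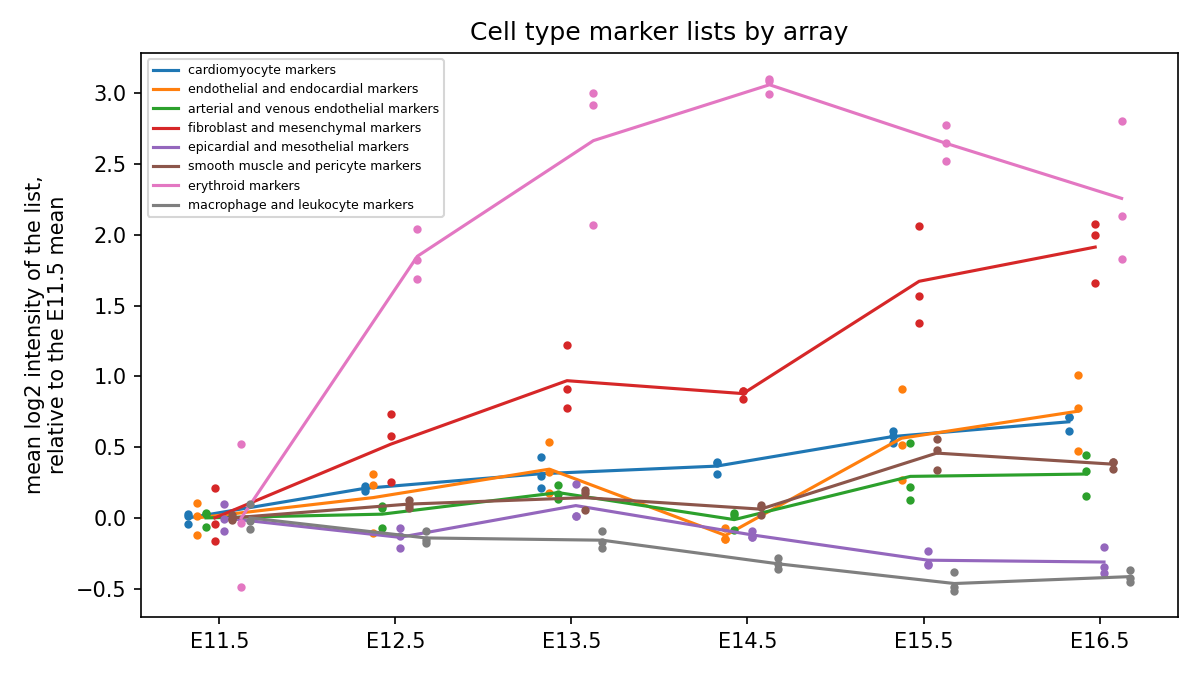
Mean log2 intensity of each cell type marker list on every array, relative to its E11.5 mean (vertical axis), by embryonic stage (horizontal axis). The fibroblast and erythroid lists climb above their E11.5 level, whereas the macrophage and epicardial lists end below it.

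Some single-day comparisons yielded no call among the members by limma. From E11.5 to E12.5, 0 of 15 probes passed and 0 had an unadjusted p under 0.05, where 1.59% of all probes passed and 10.9% had such an unadjusted p. From E15.5 to E16.5, 0 of 15 passed and 4 had an unadjusted p under 0.05, where 3.69% of all probes did. At this step 0.00395% of all probes passed the adjusted test, which is 1 probe, or 2 with the replicate number as a block. The step from E13.5 to E14.5, given with Gja5, is the remaining one.

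Chamber and layer lists give the surroundings of these changes. Of 11 atrial myocyte genes tested, 5 fell and 1 rose, against 10.5% and 8.95% of all probes. These shares are a description and no test, since the lists were chosen with earlier results of these data known. The list also takes the probe with the highest mean of each gene, whereas the percentages include dim probes. Mybphl, a myosin-binding protein, was 14.9-fold lower, the light chain Myl1 13.4-fold lower, the secreted Dkk3 7.55-fold lower and the atrial light chain Myl7 5.57-fold lower. Myl4 changed by -0.25 (SE 0.13, limma adjusted p = 0.205). Of 13 ventricular genes, 4 rose, 3 fell and 6 did not pass. Rpl3l, a striated muscle ribosomal protein, was 1.95-fold higher, Cited1 was 2.43-fold lower, and the ventricular light chain Myl2 changed by 0.08 (SE 0.11, limma adjusted p = 0.687).

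The trabecular list, whose best-known members Nppa and Gja5 are outside this count, fell in 7 of 10 tested genes and rose in none, with a median of -0.85. Robo1, a guidance receptor, was 2.90-fold lower and Sema3a, a secreted guidance cue, 2.62-fold lower. The compact list had 3 falling, 1 rising and 6 that did not pass, with a median of -0.37. Hey2, the compact layer repressor, was 1.34-fold higher (limma adjusted p = 0.0469), and Mef2c was 1.51-fold lower. Tgfb2 and Ccnd1 were 1.39-fold and 1.35-fold lower. Lists were not compared with each other.

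Of 20 tested regulators of the members, 6 rose, 4 fell and 10 did not pass. Bmp10, a trabecular growth factor, was at least 1.68-fold lower, and Bmp4 was 2.06-fold lower. The Notch effector Heyl was at least 1.71-fold higher and the receptor Notch1 1.90-fold higher. Nkx2-5, the cardiac NK2 factor whose core motif stands in the Nppa and Gja5 windows, changed by -0.43 (SE 0.21, limma adjusted p = 0.163).

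**Figure D5:**
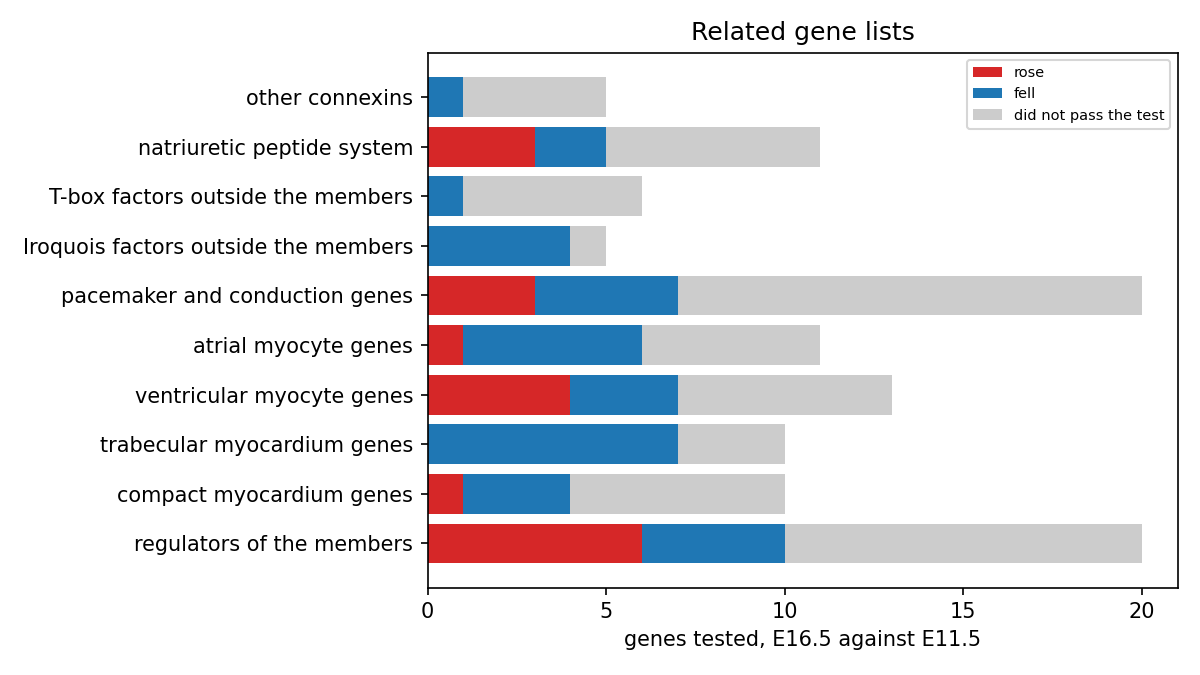
Number of tested genes (horizontal axis) in each related gene list (vertical axis) that rose, fell or did not pass limma's test at an adjusted p under 0.05 between E11.5 and E16.5. The trabecular and Iroquois bars hold falling genes and no rising ones.

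The members' courses over the 18 arrays were also set against each other, as a description of arrays that share the stage order. Nppa followed Gja5 (r = 0.859) and Tbx3 (r = 0.835), and Gja5 followed Tbx3 (r = 0.839). Gja5 ran opposite to Gja1 (r = -0.826) and Nr2f2 (r = -0.794), whereas Nppa and Nppb correlated at 0.478. With the stage means removed, the first 3 of these correlations were 0.10, 0.07 and -0.31.

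Among 3637 named genes that passed the F test, those with the course most like each member were as follows. Nppa was most like Irx5 (r = 0.932), Emb (0.926) and Pirt (0.918). Nppb was most like Hdc (0.899), Klhl6 (0.820) and Fam178b (0.815). Gja5, on probe ILMN_2691641, was most like Col2a1 (0.963), Nudt11 (0.960) and Kctd15 (0.959). For Gja1 they were Atg10 (0.916), Aldh6a1 (0.914) and Zfp672 (0.913). For Tbx3 probe ILMN_1247220 they were Dab2ip (0.946), Cercam (0.943) and Galnt2 (0.940). The other Tbx3 probe that passed, ILMN_3139514, shared none of these and had Cap1 (0.910), Pcsk6 (0.905) and Pirt (0.904). Irx4 had Ror2 (0.897), Eno1b (0.886) and Dpp3 (0.885), and Nr2f2 had Litaf (0.914), Gadd45b (0.895) and Col16a1 (0.880). Of these, Irx5 also belongs to the Iroquois list.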

How the data were processed

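The deposited values were intensities, 1 per probe and array, exported with GenomeStudio 2011.1 per the submitters' processing notes; the 18 columns share their quantiles (sorted arrays differ by at most 0.0874%), and no background had been subtracted. A second, non-normalized table has 36 columns that match no sample by name and was not used. Background was corrected with normexp (offset 16) and log2 was taken. The limit for a signal above background was a deposited intensity of 105.4, the mode of the intensities (99.0) plus 1.64 SD (3.91, from the values below the mode). A probe was tested if it passed the limit on at least 3 of 18 arrays, which kept 25342 of 45281 probes (56.0%). limma 3.58.1 (R 4.3.3) was fitted with 1 coefficient per stage over all 18 arrays, and p-values were Benjamini-Hochberg adjusted over all tested probes, with a threshold of 0.05. Slopes of within-array differences were tested by 100000 permutations of the stage labels (two-sided, n = 18, adjusted over 5 pairs). The number of arrays, 3 a stage, limits the precision. The fits were tested on simulated data.

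Platform annotation gave 34885 probes 1 symbol, 18 several and 10378 none, and 12859 named genes were tested. All 23 member probes matched RefSeq genes by Entrez identifier, and 7 of the 10 genes had a promoter entry. A gene with several probes is represented in lists by the probe with the highest mean. Where no array of a stage was above the limit, a fold is a bound.

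The text names every probe of the 10 genes, up to 4 changed genes per list by size of change (or 2 where fewer than 2 passed), the 3 genes most like each member that passed the F test, and a fixed set of chamber and cell type genes. Wt1 and Tnnt2 were not analysed here. The members and lists were chosen with earlier results of these data known. Replicate numbers were checked as pairs. Of 15 pairs of stages, 3 had all 3 same-numbered correlations of deviations over 0.1. E15.5 with E16.5 was among them (0.28, 0.19 and 0.33) and E11.5 with E16.5 was not. In 36 of 45 checks, however, the same-numbered array correlated best of the 3 arrays of the other stage. The main fit and the main permutation tests did not use the replicate number. Alternatives were other background settings, filters, normalizations, array weights, a replicate block, fits on the 2 stages compared and each array left out.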

Additional observations from a re-analysis of the deposited data

How the results depend on the processing

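The direction and call of the members between E11.5 and E16.5 were kept under every alternative run other than leaving out single arrays, and 8 to 9 of 15 member probes passed when 1 array was left out. Single-day counts were less stable. In the main fit, 799 probes (3.15% of all) passed at E13.5 to E14.5 and also at E14.5 to E15.5. Where this section gives member probes at these steps without a count of all probes, that count was of the same order. No background correction gave 1 member probe at E13.5 to E14.5 and 0 at E14.5 to E15.5, and 0 of all probes at E15.5 to E16.5. An offset of 50 gave 1 at E13.5 to E14.5 and 0 of all probes at E15.5 to E16.5, and the stricter filter gave 2 at E14.5 to E15.5. Array weights gave 726, 1301, 2543 and 1658 probes for the 4 steps up to E15.5 and 1780 for the quadratic trend, with 2 and 5 member probes at E13.5 to E14.5 and E14.5 to E15.5. Fitting the 2 stages alone gave 118 probes at E12.5 to E13.5 and 5 member probes at E14.5 to E15.5. The replicate block over 18 arrays gave 1199 probes at E13.5 to E14.5, with 1 member probe there (Gja5 ILMN_2908133, adjusted p = 0.0374) and 2 at E14.5 to E15.5 (the same probe, 0.0140, and Gja5 ILMN_2908132, 0.0317). On E15.5 and E16.5 alone the block gave 2 probes, none of them a member.

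Leaving out both E12.5 replicate 1 and E13.5 replicate 1, an alternative chosen after seeing the data, gave 2023 probes at E12.5 to E13.5, 2758 at E13.5 to E14.5 and 1906 for the quadratic trend, with 3, 4 and 2 member probes at E13.5 to E14.5, E14.5 to E15.5 and the quadratic trend. Leaving out 1 array at a time gave 3833 to 5183 probes for E11.5 to E16.5 (4916 with all arrays). The steps in order gave 208 to 491 (403), 142 to 1849 (530), 109 to 2451 (799), 327 to 974 (799) and 1 to 8 (1). The quadratic trend gave 709 to 1735 (1028), with 1 to 2 member probes. Member probes numbered 0 to 1 at E12.5 to E13.5, 0 to 3 at E13.5 to E14.5 and 0 to 3 at E14.5 to E15.5. The Tbx2 values turned sign without E11.5 replicate 1, with a range over single arrays left out of -0.176 to 0.0769 between E11.5 and E16.5 and of -0.0333 to 0.00275 per day (limma adjusted p = 0.816 and 0.960 at the turned values). All 5 slopes of paired genes kept their sign in every alternative run. The Nppb linear trend (adjusted p = 0.0315) was lost with cyclic loess (0.0682) and reached 0.157 with single arrays left out. The cause of these shifts was not tested. Signals of Hcn4, Tbx2 and Nr2f2 near background limit what their probes can show.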

Other observations

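Sln, which encodes sarcolipin, an atrial regulator of the calcium pump, peaked in mid-series. Its mean log2 intensity went from 4.58 and 4.83 at the first 2 stages through 5.24 (E13.5) to 6.39 (E14.5), and was 5.46 and 5.36 at the last 2, with all 3 arrays above background at E14.5 and none at E11.5 or E12.5. It rose by 1.15 from E13.5 to E14.5 (SE 0.23, limma adjusted p = 0.0083) and changed by -0.93 the day after (SE 0.23, limma adjusted p = 0.0212). Myl7, another atrial gene, changed by -1.49 on that same day (SE 0.18, limma adjusted p = 1.49e-05), the day on which the Nppa means also differed most. Without E12.5 replicate 1 and E13.5 replicate 1, a choice made after seeing the data, the Sln steps were 1.54 and -0.93 (limma adjusted p = 5.22e-05 and 0.00185).

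Nkx2-5 had means of 8.30, 8.43 and 9.02 at E11.5, E12.5 and E13.5 and of 8.09, 7.99 and 7.86 at the later stages, and its step from E13.5 to E14.5 was -0.93 (limma adjusted p = 0.0157). Hey2 had its highest mean, 9.28, at E13.5 (SD 0.40, n = 3), with a quadratic trend of -0.36 (limma adjusted p = 0.047). Without the same 2 arrays, the Nkx2-5 step was -1.23 (limma adjusted p = 7.67e-05) and the Hey2 trend -0.45 (limma adjusted p = 0.00453). Gja4 rose by 0.81 from E14.5 to E15.5 (limma adjusted p = 0.0355). Among myocyte markers, Tnni3 was 2.07-fold higher at E16.5 than at E11.5, while Myh6 changed by -0.19 (limma adjusted p = 0.497) and Myh7 by 0.50 (limma adjusted p = 0.0803).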
